A study of Mus musculus with 4 samples.

Results

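Leptin, the fat-cell hormone that reports fat stores to the brain, is made in far larger amounts by white than by brown adipose tissue. Its gene, Lep, was therefore read here together with 9 genes listed as white fat markers: Nnat, Sncg, Mest, Sfrp5, Npr3, Hoxc8, Hoxc9, Hoxc10 and Agt. The 10 genes were selected on earlier values of these same arrays, in which Lep was lower after treatment and white fat genes stood out on 1 array, so the levels below are descriptions and no test of them is offered as support. Each of the 10 genes had at least 1 probe among the 20145 genes that could be named on the array, with 13 probes in all. Of the 10 genes, 7 had a probe that was well above background on both arrays of a group (Lep, Nnat, Sncg, Mest, Sfrp5, Npr3 and Agt) and entered the comparison, which held 24973 probes and 12791 named genes in all. The other 3, Hoxc8, Hoxc9 and Hoxc10, were not well above background on any array. Among the 7, 5 were highest on the array of 1 vehicle-treated mouse, as were 5808 of all 24973 probes. The lower Lep signal after treatment rested in part on that mouse.

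The samples were brown adipose tissue (BAT) of 4 male mice carrying the transgene maP2::Fv2E-PERK on the C57/BL6N background at 8 weeks of age. The transgene joins the kinase domain of PERK, which phosphorylates eIF2α in the integrated stress response (ISR), to a domain that dimerizes when the ligand AP20187 (AP) is given. It is driven by the mouse aP2 (Fabp4) promoter, which is active in fat cells and also in monocytes and macrophages. There were 2 Tg mice injected with vehicle and 2 Tg mice injected with AP at 1 ng/g by the sample labels, and BAT was collected 12 h later. A legend of the study gives a higher dose of AP for these mice. The vehicle held ethanol, PEG-400 and Tween-20 in water. The 4 mice all carried the transgene, so AP in mice without it was not analysed here, and the diet of these mice is not given in the sources used here.

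Each array gave the brightness of every probe, which is written below as log2 of the signal relative to the 75th percentile of that array. A value of 0 is therefore the brightness of the probe at that percentile, and 1 unit is a 2-fold step. The 75th percentile lay between 118.5 and 158.7 intensity units, 46.4 to 49.0% of spots were well above background and 0 were saturated. Vehicle replicate 2 was the brightest array and gave the upper end of both ranges. On the other arrays the 75th percentile was at most 127.6, and at most 46.8% of spots were well above background. The arrays were read on 1 slide in 1 scan, and vehicle replicate 2 was the 1 array in the second column of the slide, so the place on the slide and the mouse cannot be told apart. The tissue label fitted its markers: the 11 brown fat genes listed were all measured, with Ucp1, the uncoupling protein of brown fat, between 9.66 and 10.41 on the 4 arrays. Trib3, a target of the ISR, was at 2.78 and 2.33 with vehicle and at 6.25 and 8.01 with AP, so both AP arrays lay above both vehicle arrays for this check of the labels. Over all 24973 probes, 0 (0%) passed an adjusted p of 0.05 in limma, 1515 (6.07%) were under 0.05 before adjustment, and the methods' t-test gave 0 after adjustment and 1478 before it. With 2 mice a group, a two-sided exact permutation test cannot go below a p of 0.333 for any 1 gene.

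White and brown fat cells share most of the genes for storing and releasing lipid, but they arise from different lineages. White fat cells store energy in 1 large droplet and secrete hormones such as leptin, and brown fat cells burn lipid through UCP1. BAT depots are bordered by white fat, and brown fat cells can also take on features of white ones, so transcripts of white fat are often found at some level in a dissected brown depot. In such bulk tissue, fewer cells of a type and less RNA per cell cannot be told apart.

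Lep (probe A_52_P374882) was at 0.04 and 1.45 in the vehicle-treated mice and at −0.63 and −0.63 in the AP-treated mice. In intensity units these were 122 and 434 with vehicle and 82.2 and 76.7 with AP. Both AP-treated mice lay below both vehicle-treated mice and nearly on each other, whereas the vehicle-treated mice stood 1.41 apart on the log2 scale. Lep was thus 1.38 lower with AP (standard error 0.51, n = 2 mice a group), or 0.385-fold on the linear scale. Against vehicle replicate 1 alone, the AP-treated mice were 0.67 lower on the log2 scale, or 0.628-fold, and against vehicle replicate 2 alone the difference was −2.08. The size of the difference therefore depended on which vehicle-treated mouse it was taken from, and its direction did not.

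The array carries 10 spots of the Lep probe, which give the error of the measurement within an array. Their SD was 0.087 and 0.086 on the log2 scale on the vehicle arrays and 0.092 and 0.115 on the AP arrays. The gap between the 2 vehicle-treated mice was thus many times the spread of the spots on either array, and so was the gap from vehicle replicate 1 to each AP-treated mouse. The spots of 1 array come from the same RNA, so they say nothing of the spread between mice.

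**Figure D1:**
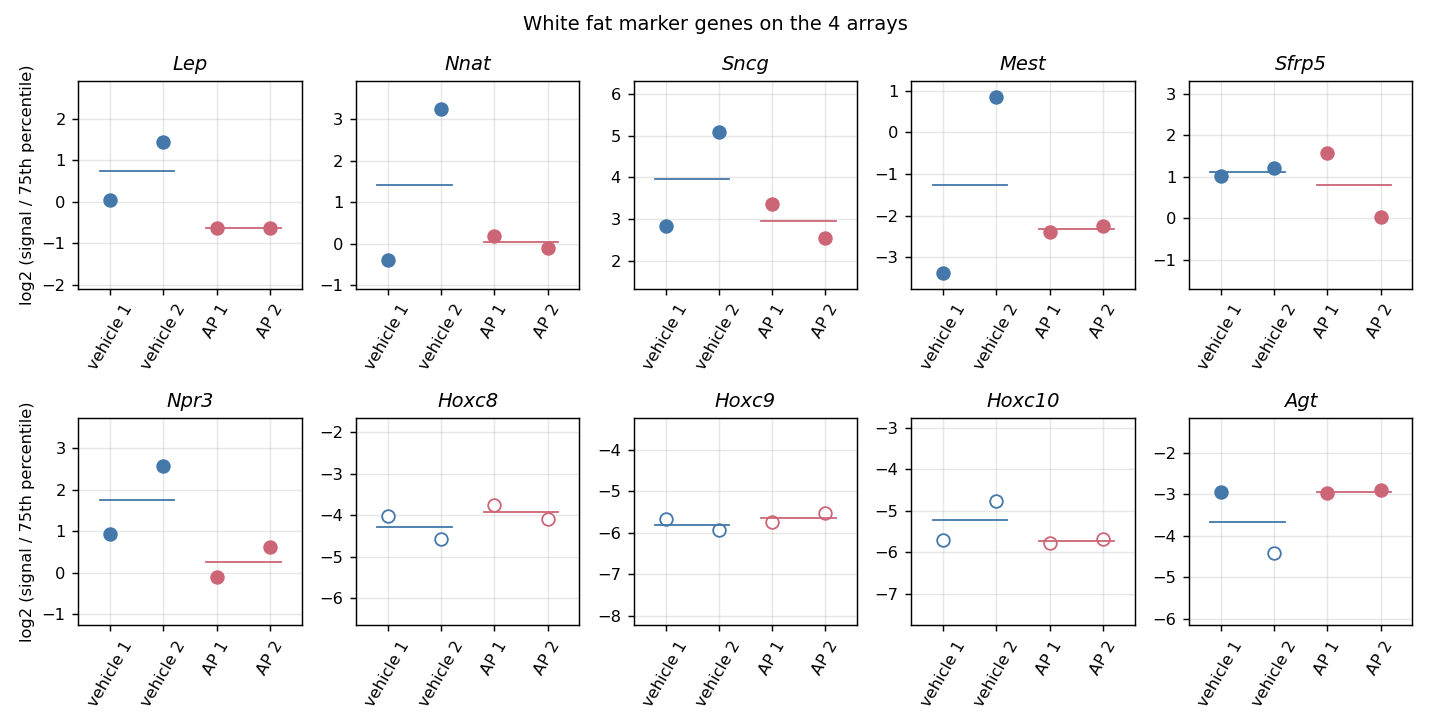
Signal of the 10 genes on each array, as log2 of brightness over the array's 75th percentile (every panel spans 5 units). Points are single mice, open where the probe was not well above background, and lines are group means; Lep, Nnat, Sncg, Mest and Npr3 have their highest point on vehicle 2 and the Hoxc genes have open points throughout.

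Npr3 encodes the clearance receptor that removes natriuretic peptides, which stimulate lipolysis, and its level is high in white fat. It was at 0.94 and 2.58 with vehicle and at −0.11 and 0.63 with AP. As for Lep, both AP-treated mice lay below both vehicle-treated mice, and vehicle replicate 2 was the highest of the 4. The difference was −1.50 (standard error 0.63, n = 2), the lowest among the 7 measured members. Against vehicle replicate 1 alone it was −0.68. Lep and Npr3 were the 2 of 7 members with both AP arrays below both vehicle arrays, a pattern shown by 20.4% of all probes, and 0 of 7 showed the opposite pattern, shown by 18.0%. Of the 7, 0 passed an adjusted p of 0.05 in limma and 1, Lep, was under 0.05 before adjustment, as were 6.07% of all probes. The genes were chosen from this comparison, so nothing is read from these counts.

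The signaling receptors of the same hormones varied far less. Npr2, whose AP values were both below its vehicle values by a small margin, was between 2.59 and 2.76 and Npr1 between −2.57 and −2.24 on the 4 arrays, and of the 7 other natriuretic peptide genes listed 3 were measured, and their difference furthest from 0 was −0.11, for Npr2. The peptide genes Nppa, Nppb and Nppc were not well above background on any array.

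Nnat, an imprinted gene whose small membrane protein is abundant in neurons and in white fat, had a far wider range. It was at −0.41 and 3.23 with vehicle and at 0.19 and −0.10 with AP. Vehicle replicate 2 was 12.5-fold above vehicle replicate 1, and both AP-treated mice were above vehicle replicate 1. The mean difference between AP and vehicle was −1.37 (standard error 1.23), as large as that of Lep, yet it was 0.45 in the other direction without vehicle replicate 2. A second probe of Nnat (A_55_P1980426) read −0.46 and 3.09 with vehicle and 0.05 and −0.34 with AP, the same order of the 4 arrays.

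Mest, an imprinted gene tied to the expansion of white fat cells, was the member with the widest gap between the vehicle-treated mice. Its value was −3.37 and 0.85 with vehicle and −2.40 and −2.25 with AP, so that vehicle replicate 2 was 18.7-fold above vehicle replicate 1. Of the 10 spots of this probe, 8, 10, 9 and 10 were used on the 4 arrays in that order, after outlier-flagged spots were left out. The spots used had an SD of 0.27, 0.078, 0.21 and 0.31, wider where the probe was dim. The AP-treated mice were 1.06 below the mean of the vehicle group (standard error 1.41) but 1.05 above vehicle replicate 1. A second Mest probe (A_55_P2090025) had its highest value on the same array, at −0.70, and was well above background there and on AP replicate 2, and the third was not well above background on any array.

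Sncg, or γ-synuclein, is found in neurons and is also a gene of white fat cells that goes with fat mass. It was at 2.84 and 5.10 with vehicle and at 3.35 and 2.54 with AP, so that vehicle replicate 2 stood 4.80-fold above vehicle replicate 1 and the AP-treated mice lay on either side of vehicle replicate 1. The difference was −1.03 (standard error 0.82), and it was 0.11 without vehicle replicate 2. The 4 arrays thus fell into vehicle replicate 2 and a group of 3 that overlapped between treatments.

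Sfrp5, a secreted antagonist of WNT proteins that white fat cells release, did not single out vehicle replicate 2. It was at 1.03 and 1.22 with vehicle and at 1.58 and 0.04 with AP, and it was the AP-treated mice that differed, by 1.54. The difference between the groups was −0.31 (standard error 0.55), and it was 0.46 without AP replicate 2. Among the other WNT genes listed, Sfrp4 also had its lowest value on AP replicate 2, at −3.56 and not well above background there, against −1.50, −1.31 and −1.94 on the other arrays. Fzd4, a WNT receptor, was between 3.94 and 4.63.

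Agt encodes angiotensinogen, the precursor of angiotensin, which both fat types and liver secrete, so it is listed here but is not particular to white fat. It passed the filter through the AP arrays alone. It was the member that was lowest on vehicle replicate 2, at −4.41 and not well above background, against −2.95 on vehicle replicate 1, −2.96 on AP replicate 1 and −2.91 on AP replicate 2. The other 3 mice were within 0.06 of each other on the log2 scale. The difference between AP and vehicle was 0.75 (standard error 0.52), and it was 0.01 without vehicle replicate 2. The probe was dim, and with normexp background correction the difference was 0.13. Of the 8 other genes of the angiotensin pathway listed, 5 were measured, and their differences lay between −0.37 for Ace, the converting enzyme, and 0.22 for Atp6ap2, the prorenin receptor.

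Hoxc8, Hoxc9 and Hoxc10, patterning genes whose expression marks white depots of the lower trunk, were not well above background on any of the 4 arrays. Their values lay between −5.93 and −3.75 and give no level and no fold. On vehicle replicate 2 they were at −4.56, −5.93 and −4.76, so none of the 3 was well above background on the array where Nnat, Mest and Sncg were highest. Their neighbors in the cluster that pattern more anterior parts of the body were measured: Hoxc4 was between 1.75 and 2.21, Hoxc5 between 0.03 and 0.72 and Hoxc6 was at 3.30 and 3.38 with vehicle and at 3.12 or lower with AP. Toward the other end, Hoxc11 and Hoxc12 were not well above background on any array, and Hoxc13 was so on vehicle replicate 2 alone, at −1.26. Of 8 Hox genes of the other clusters, 7 were measured and 0 were highest on vehicle replicate 2 by at least 1, with Hoxa7 between 2.83 and 3.21.

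The level on vehicle replicate 2 was then set against the mean of the other 3 arrays for each measured member. The difference was 3.52 for Mest, 3.34 for Nnat, 2.19 for Sncg, 2.09 for Npr3, 1.86 for Lep, 0.33 for Sfrp5 and −1.47 for Agt, with a median of 2.09 against −0.07 over all probes. The first 5 of these genes were highest on that array by at least 1 on the log2 scale, as were 1.92% of all probes, and Agt was lowest by at least 1, as were 1.1%. Agt was not well above background on vehicle replicate 2, so its value there, and with it the −1.47, is limited by background. These arrays were among those the genes were chosen from, so the count describes the choice. The neighbors in this order, Sncg, Npr3 and Lep, differed by less than the spread between the other arrays. A single array has no replicate, and the range of the other 3 arrays was 0.59 for Nnat, 0.67 for Lep and 1.05 for Npr3.

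**Figure D2:**
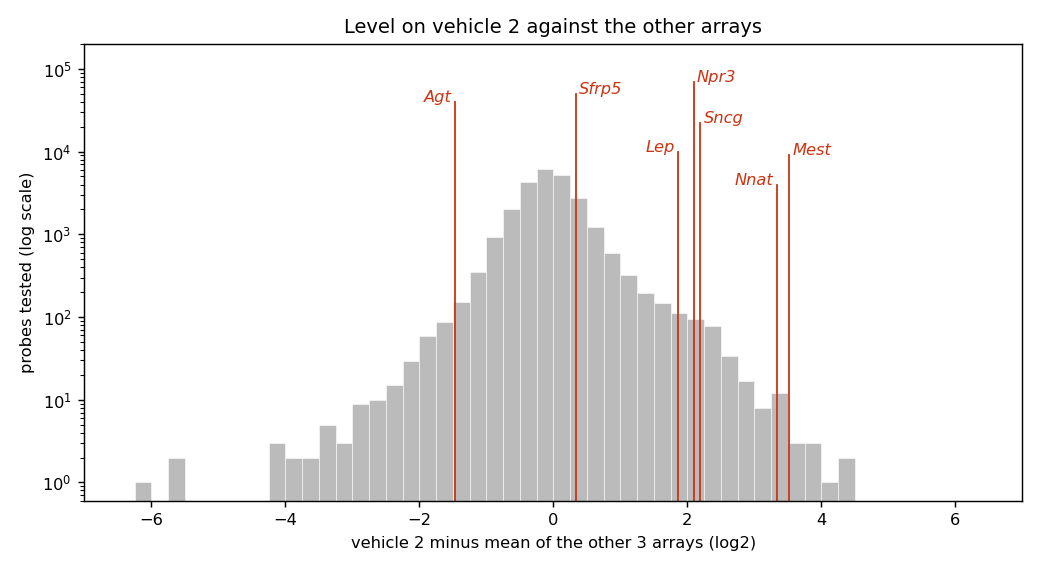
Number of probes (log axis) by the difference between vehicle 2 and the mean of the other 3 arrays (log2, steps of 0.25), with red lines at the 7 measured members. Lep, Npr3, Sncg, Nnat and Mest lie in the right tail between 1.86 and 3.52, Sfrp5 near the center and Agt on the left at −1.47.

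The comparison of AP with vehicle over the members followed from this array. The median difference of the 7 was −1.06, against −0.01 over all probes. Of the 7, 6 were lower, as were 12824 of all 24973 probes. The 1 that was higher was Agt, which was not well above background on vehicle replicate 2. With vehicle replicate 2 left out, the median was 0.01, and 4 of 7 were higher and 3 lower, where 11008 of all 24973 probes were higher. In that set, 2 (Lep and Npr3) had both AP-treated mice below vehicle replicate 1, as had 39.9% of all probes. With vehicle replicate 1 left out, the median was −2.16. Lep and Npr3 were the members whose difference kept its sign whichever mouse was left out and was at least 0.67 in size, and Agt was the other that kept its sign.

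**Figure D3:**
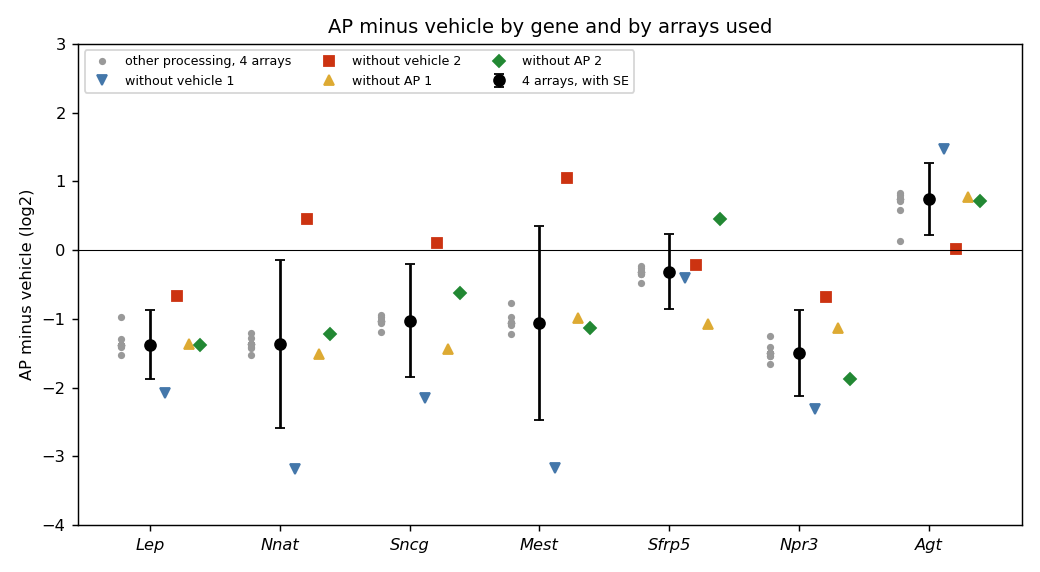
AP minus vehicle (log2) of the 7 measured genes with the standard error of limma (black), under other processing of the same arrays (gray) and with each mouse left out (colored symbols). Without vehicle 2 the values for Nnat, Sncg and Mest are above 0, and those for Lep and Npr3 are −0.67 and −0.68.

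Other genes of white fat did not single out vehicle replicate 2. Of 9 further genes that are higher in white than in brown fat or that hold back the brown program, 8 were measured. Of these 8, 1 was highest on that array (Slc7a10, an amino acid transporter of white fat cells, at 0.21) and 0 were so by at least 1. Over all 24973 probes, 5808 were highest on it and 479 by at least 1. The median difference of the 8 genes from the other arrays was 0.01. Retn, the adipokine resistin, was at 5.50 and 5.40 with vehicle and 4.98 and 5.17 with AP, and Nnmt, a methyltransferase high in white fat, was highest on AP replicate 1, at 2.26. Wfdc21, Nrip1, Tle3 and Trp53inp2 were lower on vehicle replicate 2 than on vehicle replicate 1, and Bmp3 was at −2.83 on it. Tcf21, a transcription factor of white fat precursors, was not well above background on any array. The summed signal of these 8 genes was 190.9 and 152.6 times the 75th percentile with vehicle and 139.6 and 161.9 times with AP, and that of the 7 measured members was 13.1, 56.7, 16.2 and 10.3 times in the same order. The sum of the 8 was mostly Trp53inp2, at 7.03 and 6.57 with vehicle and 6.41 and 6.73 with AP, and Retn. That of the members was mostly Sncg, so neither sum tracks the dimmer genes of its list. Whether white fat cells in the dissected depot gave the high values of the 5 members was not tested.

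Other cell types also moved with vehicle replicate 2, and these values stand beside the members. The 10 skeletal muscle genes listed were all highest on it. Of all 24973 probes, 5808 were, a share that also stands beside the macrophage count below. The muscle genes had summed signals of 72.2 and 695.3 with vehicle and 461.7 and 265.4 with AP. For muscle the AP-treated mice were above vehicle replicate 1 as well, by a median of 2.99, where the median for the members was 0.01. Myh4, a fast muscle myosin, was at 3.84 and 7.83 with vehicle and at 7.58 and 6.63 with AP. The 4 measured lymphocyte genes summed to 34.3 and 97.9 with vehicle and to 39.1 and 36.3 with AP, led by H2-Ab1, a class II antigen chain that macrophages also make, at 5.85 on vehicle replicate 2 and between 4.13 and 4.39 on the others. Cd74, which chaperones the class II chains, was at 4.96 on vehicle replicate 2 and between 2.95 and 3.35 on the others. The T-cell genes did not follow: Cd4 was at 2.77 and 2.62 with vehicle and at 2.57 and 2.44 with AP. Cd3e was at 1.19 and 1.53 with vehicle and at 1.05 and 1.27 with AP, so the sum followed the class II genes. Of the 9 lymphocyte genes, Cd8a and Cd79a were not well above background on any array. The 6 measured macrophage genes summed to between 25.2 and 43.1, with 5 of 6 highest on vehicle replicate 2. Among these 5, Lyz2 alone was so by at least 1, by 1.67. The exception was the brightest, Itgam, at 4.21 and 3.82 with vehicle and at 2.85 and 3.42 with AP. Of the fibroblast genes, Dcn varied between 6.12 and 6.49 and Dpt was highest on vehicle replicate 2, at 1.81 against −0.05 to 0.67. The 5 endothelial genes summed to between 33.4 and 38.8, and of the 5 mesothelial genes Lrrn4 alone was measured, at −3.33 on vehicle replicate 2. The part of these cell types in the values of the members was not tested.

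The summed signals of brown fat genes and of genes of fat cells in general were lowest on the same array, led by their brightest genes. Of these genes, 5 of 11 and 7 of 10 were lowest there, as were 8323 of all 24973 probes. The 11 brown fat genes summed to 6436 and 3986 with vehicle and to 5101 and 5917 with AP, and the 10 genes of fat cells in general to 4729 and 3364 with vehicle and to 4266 and 4543 with AP. Among the fat-cell genes, Adipoq, the adipokine adiponectin, and Cd36, a fatty acid transporter, were instead highest on it, at 8.44 and 6.28. The lowest value against the other arrays was that of Elovl3, a fatty acid elongase induced by cold in BAT, which was at 6.08 and −1.07 with vehicle and at 3.52 and 5.76 with AP. Ucp1 was lowest there by a bare margin, at 10.41 and 9.657 with vehicle and 9.658 and 10.25 with AP. Cidea, a lipid droplet protein, and Cox7a1 and Cox8b, subunits of the respiratory chain, were lowest on vehicle replicate 2, at 10.62, 9.50 and 9.75, whereas Prdm16, the regulator of brown fat identity, was highest there at 1.24. Zic1, Ebf2, Lhx8, Ppargc1a and Dio2 were not lowest on it. Of the nerve genes, of interest because Nnat and Sncg are also neuronal, Prph, Nefl, Nefm, Nefh and Dbh were not well above background on any array, and Th, the enzyme that begins catecholamine synthesis, was not highest on vehicle replicate 2. Uchl1, a neuronal enzyme of the ubiquitin system, was well above background on vehicle replicate 2 alone, at −3.43.

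**Figure D4:**
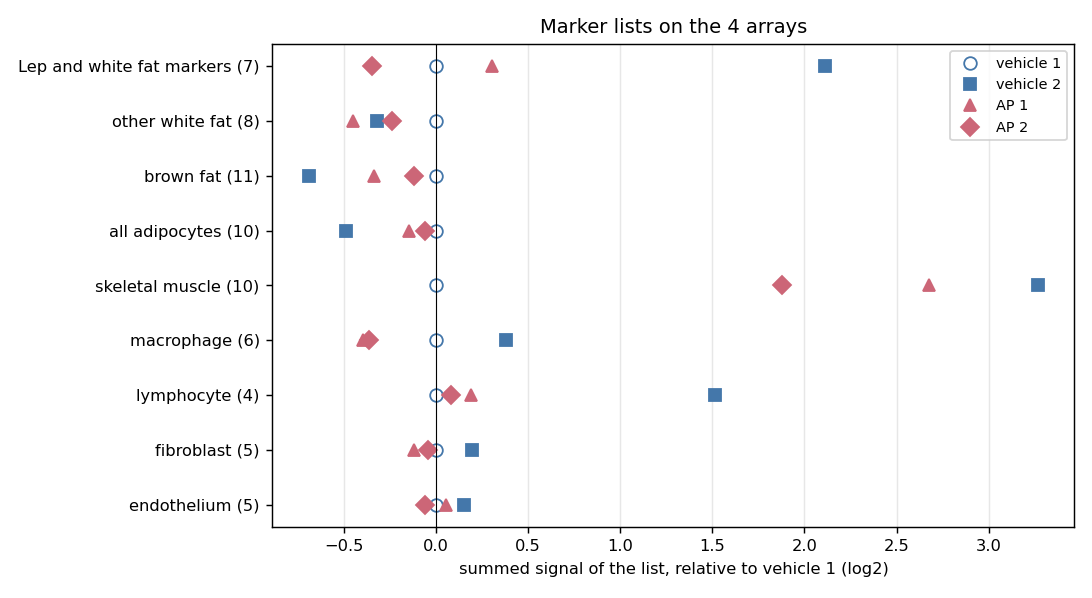
Summed signal of the measured genes of each list (number in brackets) on each array, as log2 relative to vehicle 1. Each sum is weighted toward the brightest genes of its list. The members and skeletal muscle have vehicle 2 far to the right, but muscle is also to the right for both AP mice, and brown fat and general fat-cell genes have vehicle 2 on the left.

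Nnat and Mest are expressed from the paternal chromosome, and other imprinted genes were read beside them. Of 10 listed, 9 had a probe, 7 were measured and 5 were highest on vehicle replicate 2, with a median difference from the other arrays of 0.62. Over all 24973 probes, 5808 were highest there, 479 of them by at least 1, and the median difference was −0.07. Ndn, another paternally expressed gene of neurons and fat cell precursors, was at 1.25 and 2.79 with vehicle and at 0.70 and 1.23 with AP, and it was the 1 of the 7 that was highest there by at least 1. Blcap, the gene within which Nnat lies, was at 3.48 and 3.36 with vehicle and at 4.73 and 3.91 with AP, with its lowest value where Nnat was highest. Copg2, which lies next to Mest, was at 0.94 and 2.16 with vehicle and at 0.98 and 2.14 with AP. Copg2 thus had the same order of arrays as Mest, with vehicle replicate 2 and AP replicate 2 close together, and Blcap and Nnat had different orders.

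The 10 genes listed for leptin signaling were all measured. Lepr, the leptin receptor, was between 2.52 and 2.78 on the 4 arrays, and Jak2 and Stat3, which carry its signal, differed between groups by 0.25 and 0.11. Socs3, which is induced by leptin and damps its receptor, was at 1.38 and 0.49 with vehicle and at 0.99 and −0.10 with AP. Of the 10 genes, 0 passed the adjusted threshold in limma and 1, Irs2, had an unadjusted p under 0.05, as had 6.07% of all probes. Irs2, an insulin receptor substrate, was at 1.55 and 2.36 with vehicle and at 3.32 and 2.79 with AP, a difference of 1.10 (standard error 0.37). Among 7 factors known to act on Lep transcription, 0 had an unadjusted p under 0.05. Cebpa was at 4.97 and 5.58 with vehicle and at 5.22 and 5.45 with AP. Pparg was at 6.77 and 6.82 with vehicle and at 7.02 and 7.05 with AP. Neither was lower in the AP-treated mice than in vehicle replicate 1, but Cebpa was lower in both than in vehicle replicate 2. The part of these factors in the Lep values was not tested. The differences of the 7 factors ranged from −0.09 for Hif1a to 0.44 for Rxra.

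Since 5 members were high together on 1 array and Agt was low there, the upstream bases of these genes are shown for what they do or do not share. The RefSeq promoter table of assembly GRCm38.p6 held 7 of the 10 genes, with 3 starts for Mest, and Hoxc8, Hoxc9 and Hoxc10 were not matched in it. The 120 bases just before the start are printed 5′ to 3′ on the gene's own strand, and capitals mark the motifs found. The windows are chr6:29060101-29060220 (+) for Lep, chr2:157559958-157560077 (+) for Nnat, chr14:34374670-34374789 (−) for Sncg, chr6:30737930-30738049 (+) for the second Mest start, chr15:11907372-11907491 (−) for Npr3 and chr8:124569707-124569826 (−) for Agt.
Lep: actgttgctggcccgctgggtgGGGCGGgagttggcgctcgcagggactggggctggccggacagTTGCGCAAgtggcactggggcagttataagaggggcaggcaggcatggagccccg
Nnat: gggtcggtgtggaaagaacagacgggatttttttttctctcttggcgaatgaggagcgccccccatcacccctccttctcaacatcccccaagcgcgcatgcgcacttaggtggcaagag
Sncg: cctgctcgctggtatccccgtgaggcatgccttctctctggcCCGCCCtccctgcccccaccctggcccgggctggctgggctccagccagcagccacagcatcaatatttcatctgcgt
Mest: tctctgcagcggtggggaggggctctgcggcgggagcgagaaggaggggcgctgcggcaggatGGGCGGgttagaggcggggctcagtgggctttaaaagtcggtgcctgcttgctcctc
Npr3: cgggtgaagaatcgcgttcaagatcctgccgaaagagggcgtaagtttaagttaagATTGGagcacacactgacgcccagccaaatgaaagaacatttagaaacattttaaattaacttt
Agt: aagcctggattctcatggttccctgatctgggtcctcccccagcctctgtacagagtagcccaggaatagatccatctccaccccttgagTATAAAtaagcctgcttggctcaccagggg

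In the 250 bases before each start, 6 motifs were searched on both strands: the TATA box TATAAA, the palindrome TTGCGCAA bound by C/EBP factors, the Sp1 box GGGCGG, the box CCAAT, the E-box CACGTG and the element TGATGNAA bound by ATF4 with C/EBP partners in the ISR. No matches of different motifs overlapped. Lep had TTGCGCAA from base 55 to base 48 before its start, a sequence held by 0.164% of 32851 promoter windows, and GGGCGG from base 98 to base 93. GGGCGG, held by 32.7% of windows, was also found in Sncg, Sfrp5 and all 3 Mest windows, of which the last 2 start 3 bases apart and hold the same site. Agt had TATAAA from base 30 to base 25, as had 12.4% of windows somewhere, and no CG pair in its 250 bases, where the median window had 6 and that of Lep 16. Only these exact letters were counted, and the printed bases of Lep hold tataag, a near match of TATAAA that was not counted. Npr3 had CCAAT, held by 33.8% of windows, on the other strand, and Nnat had none of the 6. TGATGNAA, held by 3.45% of windows, and CACGTG, held by 6.02%, were not found in any of the windows of the 7 genes. No motif was thus held by all 5 genes that were high on vehicle replicate 2. A match is a match of letters, and none of these sites was measured.

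The genes most like Lep over the 4 arrays were found among 2615 genes that were measured on every array and varied by at least 1 on the log2 scale. After each gene was centered on its own mean, the 10 nearest by root mean square difference were Gamt, C1qtnf7, Amigo3, Mmp23, Tuba1a, Abi3, Sez6l2, Nfkbie, Rnft2 and Spn, at 0.126 to 0.192. Gamt, the last enzyme of creatine synthesis, was at 2.54 and 3.77 with vehicle and at 1.61 and 1.92 with AP. C1qtnf7, a secreted relative of adiponectin, was at −1.67 and −0.21 with vehicle and at −2.23 and −1.98 with AP. Spn, a surface protein of leukocytes, was at −2.15 and −0.32 with vehicle and at −2.34 and −2.42 with AP. With 4 points such likeness is common: 229 genes (8.76%) had a Pearson's r above 0.9 with Lep, and 2 of the 10 were also among the nearest 10 by r. Of the members, Npr3 ranked 31 in likeness to Lep, Sncg 230, Nnat 853, Sfrp5 1008 and Mest 1259. By Pearson's r the ranks were 76 for Npr3, 240 for Nnat, 255 for Sncg and 423 for Mest. Both measures use all 4 arrays, so the height of vehicle replicate 2 enters them.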

How the data were processed

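RNA of each mouse was labeled with Cy3 and hybridized to a SurePrint G3 Mouse array. Per the file headers and labels, the authors extracted the scans with Agilent Feature Extraction 10.7.1.1 and deposited background-subtracted spot intensity values, not normalized between arrays. They also deposited a table of log2 values with its scale and centering unstated (medians −0.284, −0.160, −0.438 and −0.293), whose differences between arrays correlated with those of the intensities at 0.9998 or more, and which served as an alternative.

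Control and outlier-flagged spots were left out, spots of a probe were averaged, and log2 signals were set relative to the 75th percentile of each array. Probes were named by accession through RefSeq (GRCm38.p6), since the array design is on another build, and gene coordinates were not used. A probe was kept if well above background in both mice of a group. For genes with several probes, the one with the highest mean was used. Groups were compared with limma 3.58.1 in R 4.3.3 (lmFit, eBayes, Benjamini-Hochberg, 0.05), which was tested on simulated data, with no block: same-numbered mice share only a number. Mice were separated before the experiment per the methods, each array is labeled as a replicate of its group, and precision is limited by how few arrays there are.

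The members, gene lists and alternatives were chosen with earlier results of these data known. Named are the members, all genes of the other white fat, Hoxc and brown fat lists, of each other list its highest, lowest and brightest gene, Trib3 and Ddit3, and the 10 genes nearest to Lep. Genes named beyond these were chosen after their values were seen, and some listed genes are not reported here.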

Additional observations from a re-analysis of the deposited data

How the results depend on the processing

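Lep was lower with AP in 16 of 16 alternatives, from −2.08 without vehicle replicate 1 to −0.67 without vehicle replicate 2, and from −1.52 (the authors' log2 values) to −0.97 (normexp) with all mice. The filters on dim probes, the blocks, the t-test, the variance trend and the mean of all probes could not move the Lep difference. They left it at −1.38, so only the other scalings and the sets without 1 mouse bear on its direction. Without vehicle replicate 2, the differences of Nnat (0.45), Sncg (0.11) and Mest (1.05) and the median of the members (0.015) turned to higher with AP, and without AP replicate 2 that of Sfrp5 did (0.46). Over the 4 sets that leave out 1 mouse, Nnat ranged from −3.19 to 0.45, Mest from −3.17 to 1.05, Sncg from −2.16 to 0.11, Sfrp5 from −1.08 to 0.46 and the median of the members from −2.16 to 0.015. With no filter on dim probes, which adds the Hoxc genes, the median of all 10 members on vehicle replicate 2 against the other arrays was 1.41, and the probes at an unadjusted p under 0.05 were 2610; without AP replicate 1 these were 1003. Likeness to Lep by Pearson's r kept 2 of the 10 genes. The authors' log2 values shifted the median of all probes to −0.17, and the other scalings by at most 0.1. Deviations of same-numbered mice correlated at −0.13. With the replicate number as a block, 0 probes were called after adjustment and 1226 had an unadjusted p under 0.05, against 0 and 1566 with the numbers crossed, an alternative chosen after seeing the data. A block for slide or scan was not run, since there was 1 of each. Genes near background, such as Agt and the Hoxc genes, are limited by signal, and with 2 mice a group no value has a firm error.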
